A study of Homo sapiens with 6 samples.

Results

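The constitutive proteasome subunit genes were taken as every gene row whose symbol begins with PSMA, PSMB, PSMC, PSMD, PSME or PSMF followed by a number, leaving out the immunoproteasome subunits PSMB8, PSMB9 and PSMB10. The rule found 41 of 20026 rows and used no measured value. Of these, 8 belong to the alpha ring, 8 to the beta ring, 6 to the base ATPases, 14 to the non-ATPases of the regulatory particle and its assembly, 4 to the activators, and 1 is an inhibitor. RNA sequencing had been done on 3 stable lines of HCT116, a human colon carcinoma cell line, with 2 libraries each. The control line has PQ in its titles and control as its genotype, the second line over-expressed wild type TEAD4, and the third over-expressed TEAD4 K178R. TEAD4 binds DNA and is the end point of the Hippo signalling pathway, and the comparisons ask how these genes stand in each line. For wild type replicate 2 the genotype field names TEAD5, while its title names TEAD4. Whether each line is a clone or a pool, and which promoter drives the introduced gene, is not given in the sources used here. No label ties the replicates of a line to separate cultures, so a p-value here reflects only the variation between the 2 libraries of each line, possibly technical.

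The proteasome degrades proteins that carry ubiquitin. Its core particle is a barrel of alpha rings, which gate the entrance, and beta rings, which hold the proteolytic sites, and the regulatory particle that caps it binds ubiquitin, unfolds the substrate with a ring of ATPases and feeds it into the barrel. Other caps, the PSME activators, open the gate without ubiquitin. In cells exposed to interferon, PSMB8, PSMB9 and PSMB10 replace the catalytic subunits of the constitutive core, and many constitutive genes are known targets of the transcription factor NFE2L1, which is activated when proteasome activity is short.

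The deposited values are FPKM, fragments scaled by gene length and library size, so levels can be set side by side between genes. TEAD4, the check of the labels, stood at 16.6 and 17.5 FPKM in control, 86.4 and 84.4 in wild type and 71.2 and 72.3 in K178R, a ratio of mean FPKM to control of 5.01 and 4.21. Its groups did not overlap, and introduced and endogenous TEAD4 cannot be told apart. All 8 epithelial markers were measured, EPCAM at 146 to 153 FPKM. Their summed level was 2265 to 2302 FPKM in control, 1508 to 1546 in wild type and 2562 to 2572 in K178R, and most of it was KRT8 and KRT18, which fell with wild type TEAD4 (log2 -0.75 and -0.60). CLDN7 fell there too, while CLDN3, CLDN4 and ESRP1 rose, so 3 of the 8 rose and 3 fell. With K178R against control CDH1, KRT8 and KRT18 rose and none fell. Of the markers of other cell types, COL1A2, DCN, LUM and CD3E were at 0 in all 6 libraries and PTPRC reached at most 0.00622 FPKM. COL1A1 was the 1 fibroblast marker tested, at no more than 1.73 FPKM in control, 3.52 and 3.73 in wild type and 1.79 and 1.64 in K178R, and rose with wild type TEAD4 (log2 0.82, adjusted p = 0.000121), the order seen below for many proteasome genes. The endothelial marker ESAM was lower in K178R, at 1.30 and 1.47 FPKM, than in control, at 2.02 and 1.94 (adjusted p = 0.0261). The summed level of the 6 leukocyte markers was 1.14 to 1.26 FPKM in control, 2.20 to 2.54 in wild type and 1.42 to 1.97 in K178R, nearly all of it CORO1A. The part of these markers in the results was not tested. Library depth relative to control replicate 1 was estimated at 0.915 to 1.05, and the number of reads is unknown.

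Nearly all constitutive proteasome genes were expressed at high levels in every library. Of the 41 rows, 39 passed the filter of at least 0.5 FPKM in 2 libraries. PSMA8, the testis form of an alpha subunit, was listed at 0 in all 6 libraries. PSMB11, the beta subunit of the thymus, was at 0.0356 and 0 FPKM in control, 0.0779 and 0 in wild type, and 0 in both K178R libraries. In control the median of mean FPKM was 157 for the 7 beta ring genes tested and 100.3 for the 7 alpha ring genes, against 63.3 for the ATPases, 61.5 for the non-ATPases and 27.2 for the activators. Subunits that the particle holds in equal number did not have equal RNA levels. Among the alpha genes mean FPKM in control ran from 33.2 for PSMA6 to 260.4 for PSMA7, a 7.85-fold range, and among the beta genes from 51.9 for PSMB2 to 294 for PSMB4, a 5.66-fold range. The ATPases ran from PSMC6 at 26.3 to PSMC5 at 102, and the non-ATPases from PSMD9 at 23.8 to PSMD8 at 132. PSMD9, like PSMD5 and PSMD10, is an assembly chaperone and not part of the finished particle. Among the other non-ATPases the lowest was PSMD1 at 44.0. Some low ends are uncertain, as other genes hold 85.6% of the 50-base stretches of the PSMA6 transcript, 34.3% for PSMC6 and 35.8% for PSMD9. At the high ends the shares were 0% for PSMA7, 22% for PSMC5 and 1.88% for PSMD8, and in the beta range 0.98% for PSMB2 and 0% for PSMB4. How reads with several matches were handled is unknown, and the part of this in the ranges was not tested. PSMF1, the inhibitor, had the lowest mean of the 39 at 10.6 FPKM.

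**Figure D1:**
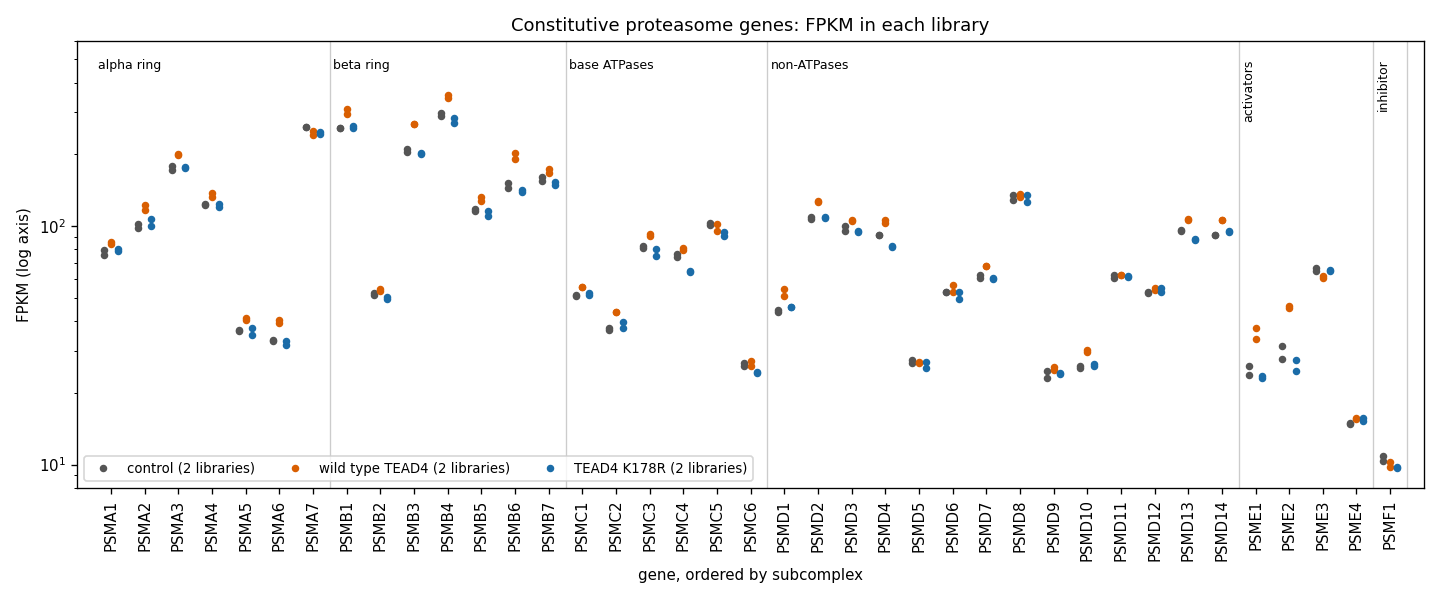
Level of the 39 tested constitutive proteasome genes in each library, in FPKM on a log axis, with genes ordered by subcomplex and 1 point per library coloured by line. Levels differ more between genes, from about 10.6 FPKM for PSMF1 to 294 for PSMB4 in control, than between the lines for any gene.

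Replicates of a line were close for these genes. The median absolute difference between the 2 libraries was 0.03 on the log2(FPKM + 1) scale in each line, and the largest was 0.19, for PSME2 in control. Differences between lines were tested with limma on that scale across 11445 genes, with Benjamini-Hochberg adjustment over all of them and a threshold of 0.05. Every adjusted p below comes from that test, and every SE is of the log2 difference.

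With wild type TEAD4, most constitutive proteasome genes stood higher than in control, by modest amounts. Of the 39 tested, 26 rose and 2 fell, where 37.6% of all genes tested rose and 12.2% fell. The median log2 difference was 0.14 over the 39 genes and 0.09 over all genes tested. Both wild type libraries lay above both control libraries for 31 of the 39, below them for 3, and among them for 5; over all genes tested the first 2 shares were 54.9% and 21.9%. The increases were largest for the activators PSME2 and PSME1 and for the beta subunits PSMB6 and PSMB3. The count depended on how libraries were scaled. After median-of-ratios scaling 15 of the 39 rose and 5 fell, where 25.7% of all genes rose and 21.1% fell, and after upper-quartile scaling 15 rose and 6 fell, with 24.2% and 23.2% of all genes. The same 15 genes rose under both scalings and in each of the 14 alternative analyses: PSMA2, PSMA3, PSMA6, PSMB1, PSMB3, PSMB4, PSMB6, PSMC2, PSMD1, PSMD2, PSMD4, PSMD10, PSMD14, PSME1 and PSME2.

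With TEAD4 K178R, none of the 39 genes rose against control and 4 fell, PSMC4, PSMD4, PSMC5 and PSMD13. Over all genes tested 11.7% rose and 11.1% fell, so the 4 of 39 that fell are a share near the background. At an unadjusted limma p under 0.05, 0 were higher and 9 lower. The share of all genes at that threshold was not counted, so these counts cannot be set against the adjusted shares. The median log2 difference was -0.03 over the 39 genes and 0.00 over all genes tested, and both K178R libraries lay below both control libraries for 17 genes, above them for 3 and among them for 19, against 30.3% and 32.7% of all genes below and above. Each alternative analysis also gave 0 members that rose, and 5 fell after either scaling, where 11.2% of all genes rose and 11.6% fell with median-of-ratios and 10.6% and 12.7% with upper-quartile scaling. This comparison and the one above share the control libraries, so their values are not independent.

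Set against wild type TEAD4 directly, 28 of the 39 genes were lower with K178R and 1 was higher, where 34.5% of all genes were lower and 10.4% higher. The median log2 difference was -0.17 over the 39 genes and -0.08 over all genes tested. Both K178R libraries lay below both wild type libraries for 33 genes, above them for 1 and among them for 5, against 52.7% and 21.5% of all genes. After median-of-ratios scaling 18 were lower and 2 higher, with 22.7% and 19% of all genes, and after upper-quartile scaling 17 and 2, with 22% and 19.8%. TEAD4 RNA was itself lower with K178R than with the wild type protein (log2 difference -0.25, adjusted p = 0.00131), and the part of that in the result was not tested.

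**Figure D2:**
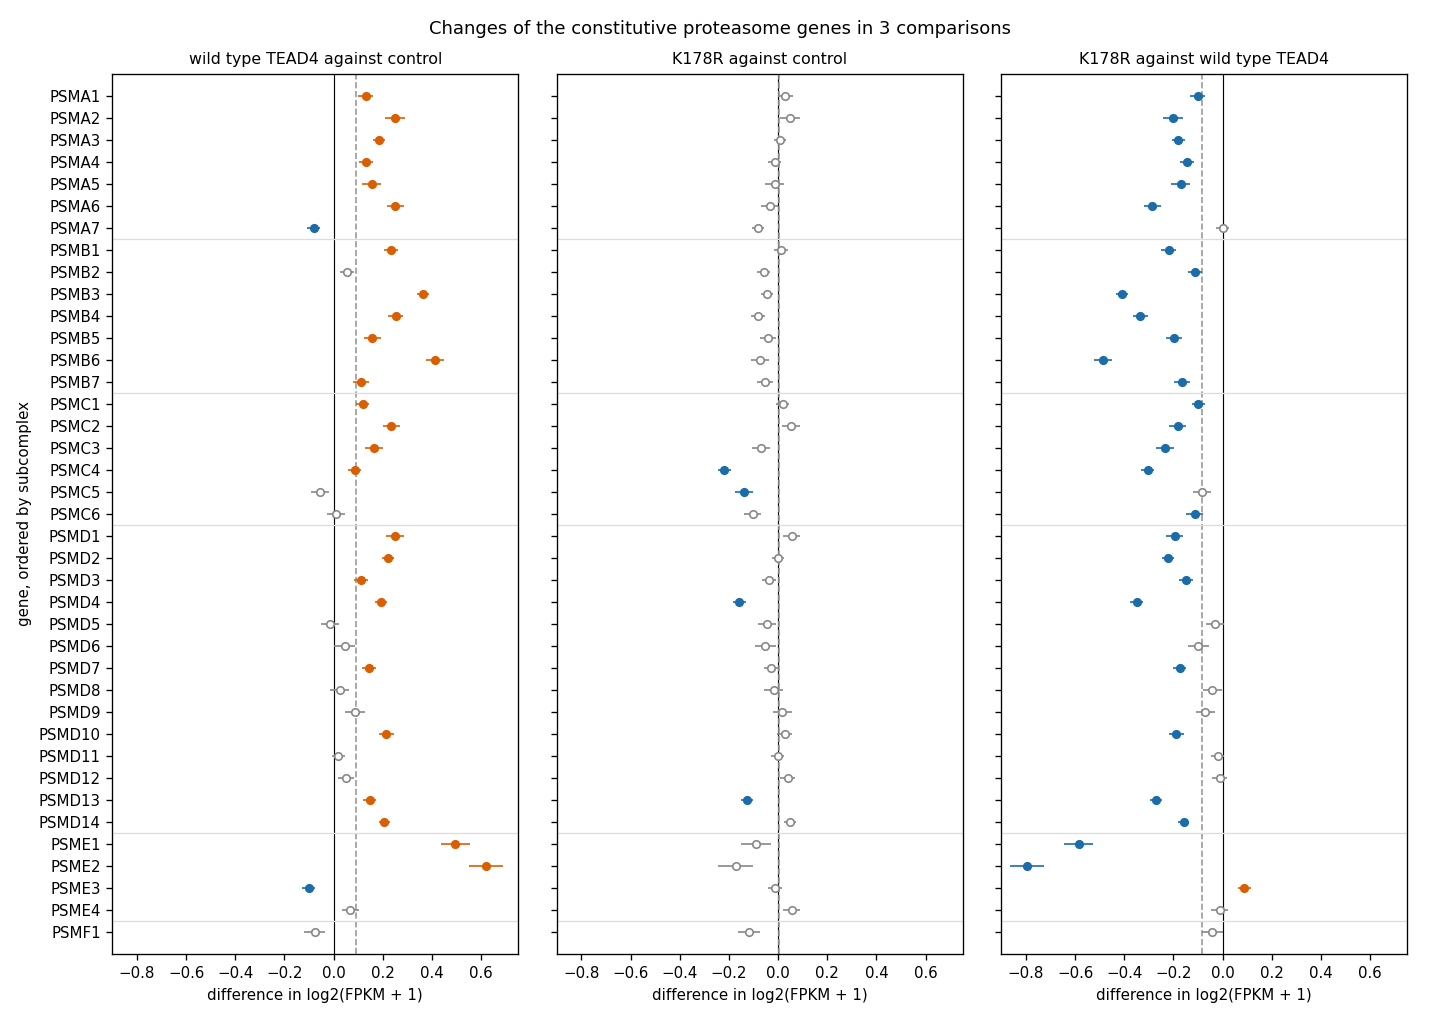
Difference of each tested constitutive proteasome gene between lines on the log2(FPKM + 1) scale, in 3 panels for the 3 comparisons, with bars of 1 SE. Filled points passed the threshold and the dashed line is the median of all tested genes; 26 genes rose and 2 fell with wild type TEAD4 against control, 4 fell with K178R against control, and 28 were lower and 1 higher with K178R against wild type.

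Among the activators, PSME2 and PSME1 had the largest differences of the 39 genes in both comparisons with the wild type line, while PSME3 fell with wild type TEAD4 by 0.10 on the log2 scale, or 0.19 and 0.21 after scaling. With K178R against control no activator passed, and the largest difference of the 39 was that of PSMC4. PSME1 and PSME2 form 1 ring-shaped cap of the core (PA28 alpha and beta), which is known to be induced by interferon gamma and to act in the supply of peptides for antigen presentation. Both lie on chromosome 14 in GRCh38 (GENCODE release 29), PSME1 on the plus strand from 24136158 to 24138967 and PSME2 on the minus strand from 24143362 to 24147570. PSME2 stood at 31.5 and 27.6 FPKM in control, 45.4 and 46.4 in wild type, and 27.5 and 24.6 in K178R. Its wild type libraries were above all others, and its K178R libraries were just below the control libraries. Mean FPKM was 55.3% higher in wild type than in control (log2 0.62, SE 0.07, adjusted p = 0.000434), and log2 was -0.79 for K178R against wild type (adjusted p = 0.000242) and -0.17 for K178R against control (adjusted p = 0.119). About 10.8% of the 50-base stretches of its transcript occur in other genes elsewhere, mainly the pseudogene PSME2P2, and 6.42% in the overlapping gene RNF31, so its level is uncertain to that extent.

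PSME1, whose transcript shares no such stretch, followed the same order. It stood at 23.7 and 25.9 FPKM in control, 37.4 and 33.5 in wild type, and 23.1 and 23.4 in K178R. Its wild type libraries were above all others, 42.7% over control in mean FPKM (adjusted p = 0.00058), its K178R libraries lay just below the control libraries, and log2 was -0.59 for K178R against wild type (adjusted p = 0.000417). Against control K178R did not pass the test (log2 -0.09, adjusted p = 0.32). The rise of both genes in wild type and their lower level in K178R than in wild type passed in every alternative analysis.

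PSME3 (PA28 gamma) forms a separate cap in the nucleus. Its locus is chromosome 17, plus strand, 42824385 to 42843758. It stood at 65.0 and 66.4 FPKM in control, 61.7 and 60.6 in wild type, and 65.2 and 65.1 in K178R. The wild type libraries were the lowest, with a fall of log2 -0.10 from control (SE 0.03, adjusted p = 0.0161), and K178R was higher than wild type by log2 0.09 (adjusted p = 0.03), the single gene of the 39 called higher there. The fall did not pass once control replicate 2 or wild type replicate 2 was left out, with an adjusted p of up to 0.0926 over the alternative analyses, and the difference between the TEAD4 lines was lost on leaving out any 1 of their 4 libraries. PSME4 (PA200), a large activator found with acetylated histones, stood at 14.9 and 14.7 FPKM in control, 15.5 and 15.6 in wild type, and 15.7 and 15.2 in K178R, and passed no test. PSMF1 (PI31), named as an inhibitor from its action on the purified core, stood at 10.4 and 10.9 FPKM in control, 9.80 and 10.3 in wild type, and 9.71 and 9.72 in K178R. It lay lowest in K178R and passed no test without scaling (adjusted p = 0.179, 0.0935 and 0.463 in the 3 comparisons), while after either scaling its fall in wild type passed.

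The promoters of PSME1 and PSME2 are shown because these genes moved most and share a short run of letters. In RefSeq windows of 250 bases before to 50 after each start (GRCh38.p14), the letters GAAAGCGAAA occur on either strand in 35 of 35116 windows (0.0997%), and 2 of the 43 windows of the constitutive genes hold them, those of PSME1 and PSME2. So do 2 of the 4 windows of the immunoproteasome genes, those of PSMB8 and PSMB10. The window of PSMB9 does not, though PSMB9 rose more with wild type TEAD4 (log2 1.71) than PSMB10 (log2 0.25). PSMB8 was not tested. These letters were chosen after the sequences had been seen, as the exact match in the PSME2 window. The PSME2 match was thus fixed in advance, and the share among the members is no test. In the 30-base stretches below, written 5′ to 3′ on the strand of the gene, capitals mark the letters or their reverse complement.
PSME1, chr14:24136189-24136218, plus strand: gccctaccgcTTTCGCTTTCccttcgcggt
PSME2, chr14:24146619-24146648, minus strand: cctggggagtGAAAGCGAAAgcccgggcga
PSMB8, chr6:32844032-32844061, minus strand: gatctgtggcTTTCGCTTTCacttcctcct
PSMB10, chr16:67936852-67936881, minus strand: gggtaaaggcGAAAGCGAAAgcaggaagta
Counted from the start site, the match begins at position 6 in PSME1, -28 in PSME2, -4 in PSMB8 and -21 in PSMB10. It is 1 form of the core of the interferon-stimulated response element, GAAA followed after any 2 bases by GAAA, which on either strand 4 of the 43 windows (9.3%) and 3.57% of all windows hold, the other members being PSMA4 and PSMB4. A match describes letters and shows no binding.

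The beta ring, which holds the proteolytic sites, stood higher in the wild type line for most of its genes. With wild type TEAD4, 6 of its 7 tested genes rose and none fell (median log2 0.23), where 37.6% of all genes tested rose and 12.2% fell. Against control with K178R none passed (median log2 -0.05), and against wild type all 7 were lower with K178R (median log2 -0.22). Of all genes 34.5% were lower in that last comparison. After either scaling 4 of the 7 rose with wild type TEAD4 (median log2 0.14 with median-of-ratios, 0.13 with upper-quartile) and 5 were lower with K178R than with wild type. In the same order 25.7% and 22.7% of all genes did so with median-of-ratios scaling, and 24.2% and 22% with upper-quartile scaling. PSMB6, the catalytic subunit with caspase-like activity, stood at 145 and 151 FPKM in control, 203 and 191 in wild type, and 142 and 139 in K178R. Its wild type libraries were above all others, 33.3% over control in mean FPKM (log2 0.41, SE 0.04, adjusted p = 0.000153), and K178R was lower than wild type by log2 -0.49 (adjusted p = 0.000135). The locus of PSMB6 is chromosome 17, plus strand, 4796144 to 4798503. The other catalytic subunits moved less. PSMB5, with chymotrypsin-like activity and the main target of bortezomib, stood at 117 and 115 FPKM in control, 127 and 133 in wild type and 115.6 and 111 in K178R, a rise of log2 0.16 in wild type (adjusted p = 0.00623) that did not pass after either scaling. PSMB7, with trypsin-like activity, stood at 160.4 and 154 FPKM in control, 167 and 173 in wild type, and 154 and 149 in K178R. Its wild type libraries were the highest, with log2 0.11 against control (adjusted p = 0.0225), a call that was lost in 7 of 14 alternative analyses, among them those that left out control replicate 2 or wild type replicate 2.

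Among the beta subunits without proteolytic activity, PSMB3 had the smallest adjusted p of the 39 genes. It stood at 211 and 205 FPKM in control, 267 and 269 in wild type, and 202 and 200.6 in K178R. The replicate difference was small beside the 28.8% rise in wild type (log2 0.36, SE 0.02, adjusted p = 4.54e-05), and K178R was lower than wild type by log2 -0.41 (adjusted p = 5.02e-05). PSMB4, the most abundant of the 39, stood at 297 and 290.3 FPKM in control, 345 and 355 in wild type, and 283 and 271 in K178R, a rise of log2 0.25 in wild type (adjusted p = 0.00052). PSMB1 stood at 259 and 257 FPKM in control, 311 and 296 in wild type, and 257 and 264 in K178R, a rise of log2 0.23 (adjusted p = 0.000696). PSMB2 stood at 51.3 and 52.6 FPKM in control and 54.3 and 53.6 in wild type, which did not pass (log2 0.05, adjusted p = 0.148), and was lower in K178R, at 49.4 and 50.2, than in wild type (adjusted p = 0.0147). That last call was lost after either scaling, in the fit without trend, and on leaving out wild type replicate 1 or K178R replicate 1. The summed FPKM of the 7 genes was 1241 and 1226 in control, 1474 and 1471 in wild type and 1203 and 1185 in K178R.

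**Figure D3:**
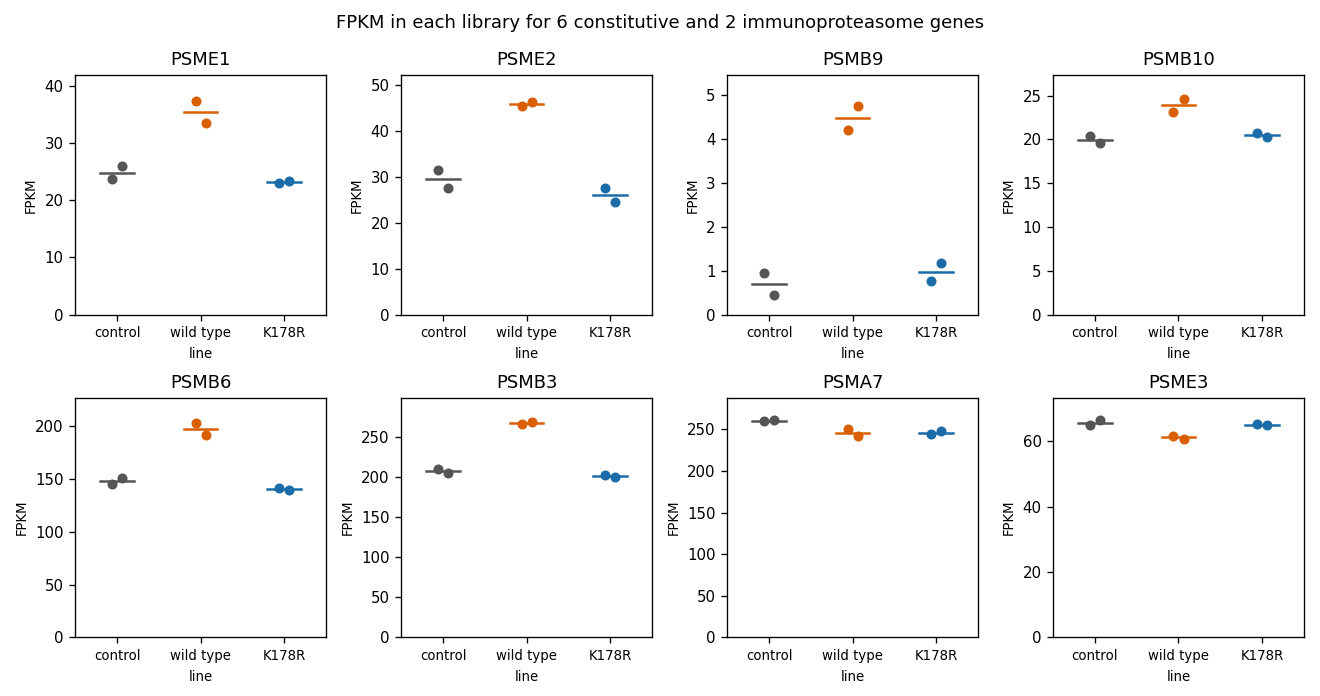
Level in FPKM of PSME1, PSME2, PSMB9, PSMB10, PSMB6, PSMB3, PSMA7 and PSME3 in the 6 libraries, with 1 point per library and a bar at the mean of the 2 libraries of a line. The wild type points lie above the others for the first 6 genes, the control points lie highest for PSMA7, and the wild type points lie lowest for PSME3.

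Sequence before the start of PSMB3 and PSMB4 is shown beside that of PSME1, as 3 of the genes with the largest or most precise rise for which RefSeq windows were at hand. Each stretch ends before the start given by both RefSeq and GENCODE. Capitals mark TGACNNNGC, the core of the antioxidant response element bound by NFE2L1 with small MAF proteins, or the interferon-stimulated core.
PSME1, chr14:24135944-24136157, plus strand: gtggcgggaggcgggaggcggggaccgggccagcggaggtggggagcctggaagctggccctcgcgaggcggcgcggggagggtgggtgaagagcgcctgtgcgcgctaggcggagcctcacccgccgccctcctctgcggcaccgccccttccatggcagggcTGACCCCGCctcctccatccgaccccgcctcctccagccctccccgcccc
PSMB3, chr17:38752491-38752735, plus strand: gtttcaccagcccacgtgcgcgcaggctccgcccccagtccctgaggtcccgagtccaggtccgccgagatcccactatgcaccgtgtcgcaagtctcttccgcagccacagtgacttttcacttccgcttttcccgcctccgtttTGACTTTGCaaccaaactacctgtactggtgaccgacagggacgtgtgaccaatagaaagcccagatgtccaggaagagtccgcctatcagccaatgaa
PSMB4, chr1:151399323-151399533, plus strand: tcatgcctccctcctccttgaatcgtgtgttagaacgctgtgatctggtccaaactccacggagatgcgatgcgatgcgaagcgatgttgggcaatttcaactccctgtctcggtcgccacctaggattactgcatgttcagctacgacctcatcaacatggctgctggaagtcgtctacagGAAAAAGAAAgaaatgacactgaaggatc
The capitals begin 86 bases before the RefSeq start in PSME1 and 104 in PSMB3, where they are TGACNNNGC, and 68 in PSMB4, where they are the interferon-stimulated core. Over both strands TGACNNNGC occurred in 12 of 43 windows of the constitutive genes (27.9%), from 12 genes, and in 13.3% of all windows. Of these genes PSMA4, PSMB3, PSMC4, PSMD1, PSMD3, PSME1 and PSME2 rose with wild type TEAD4 without scaling. PSMC5, PSMD5, PSMD9, PSMD12 and PSME4 did not pass there. The TEAD motif GGAATG occurred in 6 of 43 windows (14%), those of PSMA4, PSMB5, PSMC5, PSMC6, PSME2 and PSME3, and in 14% of all windows. CCAAT occurred in 41.9% of the 43 windows and 34.6% of all, and the GC box GGGCGG in 65.1% and 45%. The 43 windows belong to 36 genes, some with more than 1 start, and PSMA7, PSMB1, PSMB6, PSMB7 and PSMD4 had none. These shares describe letters in a window, and no binding was measured.

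The alpha ring followed the beta ring with smaller differences. With wild type TEAD4 6 of its 7 tested genes rose and 1 fell (median log2 0.16), with K178R none passed against control (median log2 -0.01), and against wild type 6 were lower with K178R (median log2 -0.17). Of all genes tested 37.6% rose and 12.2% fell with wild type TEAD4, and 34.5% were lower with K178R than with wild type. After either scaling 3 rose and 1 fell with wild type TEAD4 (median log2 0.07 and 0.05), and 2 were lower and 1 higher with K178R than with wild type. In the same order 25.7%, 21.1%, 22.7% and 19% of all genes did so with median-of-ratios scaling. With upper-quartile scaling these shares were 24.2%, 23.2%, 22% and 19.8%. PSMA2 stood at 102 and 98.6 FPKM in control, 123 and 117 in wild type, and 107 and 101 in K178R (log2 0.25 in wild type, adjusted p = 0.00198). PSMA6 stood at 33.1 and 33.2 FPKM in control, 39.1 and 40.3 in wild type, and 33.1 and 31.7 in K178R (log2 0.25 in wild type, adjusted p = 0.000914). In both genes the wild type libraries lay above the other 4. Both levels are uncertain, since overlapping genes hold 51.0% of the 50-base stretches of the PSMA2 transcript and 80.2% of those of PSMA6, and genes elsewhere, chiefly a pseudogene, hold 24.6% of those of PSMA6.

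PSMA7, the most abundant alpha gene, went the other way. It stood at 259.8 and 261 FPKM in control, 250.4 and 242 in wild type, and 244 and 248 in K178R, so that both TEAD4 lines lay below control. Mean FPKM fell by 5.49% with wild type TEAD4 (log2 -0.08, SE 0.03, adjusted p = 0.0314), and log2 was -0.08 with K178R (adjusted p = 0.0584) and 0.00 between the TEAD4 lines (adjusted p = 0.997). After scaling the fall with wild type TEAD4 was log2 -0.17 (median-of-ratios) and -0.19 (upper-quartile), that with K178R passed as well, and PSMA7 was higher with K178R than with wild type (log2 0.09 under both, adjusted p = 0.027 and 0.019). Without scaling, the fall with wild type TEAD4 did not pass on leaving out either control library or wild type replicate 2, with an adjusted p of up to 0.135. The locus of PSMA7 is chromosome 20, minus strand, 62136735 to 62143440.

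The ATPases of the base (PSMC genes) unfold substrates. With wild type TEAD4 4 of 6 rose and none fell (median log2 0.10), with K178R 2 fell against control (median log2 -0.09), and against wild type 5 were lower with K178R. Of all genes tested 37.6% rose and 12.2% fell with wild type TEAD4. With K178R 11.1% fell against control, and 34.5% were lower than with wild type. After either scaling 1 rose and 1 fell with wild type TEAD4, with a median log2 of 0.01 and 0.00, and 2 were lower with K178R than with wild type. In the same order 25.7%, 21.1% and 22.7% of all genes did so with median-of-ratios scaling, and 24.2%, 23.2% and 22% with upper-quartile scaling. PSMC4 stood at 74.5 and 76.4 FPKM in control, 79.5 and 80.7 in wild type, and 64.5 and 64.8 in K178R. Its K178R libraries were the lowest of the 6, a fall in mean FPKM of 14.3% from control (log2 -0.22, SE 0.03, adjusted p = 0.00139), and this passed in every alternative analysis. Its small difference in wild type (log2 0.09, adjusted p = 0.0303) was lost on leaving out any 1 of the control or wild type libraries and turned to log2 -0.01 after median-of-ratios scaling and -0.02 after upper-quartile scaling. The locus of PSMC4 is chromosome 19, plus strand, 39971005 to 39981441.

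PSMC5 stood at 101 and 103 FPKM in control, 95.4 and 102 in wild type, and 91.2 and 94.7 in K178R. It fell with K178R (log2 -0.14, SE 0.04, adjusted p = 0.0335), which was lost on leaving out any 1 of the control or K178R libraries, and 22% of the stretches of its transcript lie in the overlapping gene FTSJ3. PSMC2 rose with wild type TEAD4 from 37.4 and 36.5 to 43.5 and 43.8 FPKM (log2 0.24, adjusted p = 0.00147), and stood at 39.5 and 37.3 in K178R. PSMC3 was lower with K178R, at 74.9 and 80.5 FPKM, than with wild type, at 92.4 and 90.8 (log2 -0.24, adjusted p = 0.00222), and stood at 82.4 and 80.8 in control. PSMC6, at 26.6 and 26.0 FPKM in control, 25.9 and 27.1 in wild type and 24.5 and 24.3 in K178R, passed only between the TEAD4 lines (adjusted p = 0.0344, lost after either scaling and without either K178R library), and pseudogenes share 34.3% of its stretches.

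The 14 non-ATPases include scaffold subunits, ubiquitin receptors, the deubiquitinase PSMD14, and the base assembly chaperones PSMD5, PSMD9 and PSMD10, which are not part of the finished particle. With wild type TEAD4 8 rose and none fell (median log2 0.13), with K178R 2 fell against control (median log2 -0.01), and against wild type 8 were lower with K178R (median log2 -0.15). Of all genes tested 37.6% rose and 12.2% fell with wild type TEAD4. With K178R 11.1% fell against control, and 34.5% were lower than with wild type. After median-of-ratios scaling 5 rose and 1 fell with wild type TEAD4 (median log2 0.04), after upper-quartile scaling 5 rose and 2 fell (median log2 0.02), and 7 and 6 were lower with K178R than with wild type. Of all genes 25.7% rose, 21.1% fell and 22.7% were lower with median-of-ratios scaling, and 24.2%, 23.2% and 22% with upper-quartile scaling. PSMD1, a large scaffold subunit of the base, stood at 43.5 and 44.5 FPKM in control, 54.2 and 50.9 in wild type, and 45.7 and 45.8 in K178R (log2 0.25 in wild type, adjusted p = 0.00126). PSMD4, a ubiquitin receptor, stood at 91.7 and 91.4 FPKM in control, 103 and 106 in wild type, and 81.5 and 82.5 in K178R. Its 3 lines did not overlap: it rose with wild type TEAD4 (log2 0.19, adjusted p = 0.000976), fell with K178R (log2 -0.16, SE 0.03, adjusted p = 0.0056), and differed between them by log2 -0.35 (adjusted p = 0.000143). The 3 calls of PSMD4 passed in every alternative analysis, though 22.8% of the stretches of its transcript also lie in other genes, mainly the transcribed pseudogene PIPSL. PSMD13, a lid subunit, had the same order, at 96.4 and 95.8 FPKM in control, 107 and 106 in wild type, and 88.7 and 87.2 in K178R. Its fall with K178R (log2 -0.13, SE 0.02, adjusted p = 0.0106) was lost on leaving out either control library or K178R replicate 2, and 13.7% of its stretches lie in the overlapping gene SIRT3.

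Of the other non-ATPases, PSMD8, the most abundant in control, stood at 135 and 129 FPKM in control, 136 and 133 in wild type, and 126 and 135 in K178R. The libraries of the lines overlapped and no test passed. PSMD9, the least abundant, stood at 24.6 and 23.0 FPKM in control, 25.0 and 25.6 in wild type, and 24.0 and 24.2 in K178R, and no test passed either. Together with PSMD5, PSMD6, PSMD11 and PSMD12 they make 6 non-ATPases that passed in none of the 3 comparisons without scaling. With wild type TEAD4 PSMD5 fell after either scaling and PSMD11 after upper-quartile scaling. The chaperone PSMD10 rose with wild type TEAD4, while PSMD9 did not pass.

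Across the 3 comparisons, 23 of the 39 genes had 1 pattern: they rose with wild type TEAD4, did not pass with K178R against control, and were lower with K178R than with wild type. This holds for 20% of all genes tested. After median-of-ratios scaling 12 of the 39 had it, with 12.3% of all genes, and after upper-quartile scaling 11, with 11.6%. PSMC4, PSMD4 and PSMD13 rose with wild type TEAD4 and fell with K178R against control. After either scaling the rise of PSMC4 and PSMD13 did not pass, while the 3 falls with K178R did. PSMB2 and PSMC6 passed only between the TEAD4 lines, PSMC5 only with K178R against control, PSMA7 only with wild type against control, and PSME3 fell with wild type and was higher with K178R than with wild type. The remaining 8 passed in no comparison without scaling. After either scaling PSMC5, PSMD5 and PSMF1 fell with wild type TEAD4, PSMA7 passed in all 3 comparisons, and PSMB2 and PSMC6 passed in none.

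The immunoproteasome subunits were compared next, since they replace catalytic subunits of the core. PSMB9 stood at 0.938 and 0.450 FPKM in control, 4.20 and 4.75 in wild type, and 0.767 and 1.17 in K178R. It rose with wild type TEAD4 by log2 1.71 (SE 0.15, adjusted p = 0.000159), a size that the added 1 FPKM understates, and K178R was lower than wild type by log2 -1.48 (adjusted p = 0.000408). Against its constitutive counterpart PSMB6, at 191 to 203 FPKM in wild type, the level of PSMB9 was low. PSMB10 stood at 20.3 and 19.6 FPKM in control, 23.2 and 24.6 in wild type, and 20.8 and 20.3 in K178R, and rose with wild type TEAD4 (log2 0.25, adjusted p = 0.00219), with 38.9% of the stretches of its transcript held by an overlapping gene. PSMB8 reached at most 0.406 FPKM, in a wild type library, and was not tested. Of the 2 tested, both rose with wild type TEAD4, neither passed with K178R against control, and both were lower with K178R than with wild type. Among all genes tested, 37.6% rose with wild type TEAD4 and 34.5% were lower with K178R than with wild type. The whole pattern over the comparisons was held by 20% of all genes tested.

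Genes that build, feed or regulate the proteasome did not all move with its subunits. Of 6 assembly chaperones outside the rule, 1 rose with wild type TEAD4, PAAF1, at 2.04 and 2.66 FPKM in control, 3.19 and 3.40 in wild type and 2.59 and 2.65 in K178R (log2 0.37, adjusted p = 0.0115, lost without wild type replicate 2). In the main test, without scaling, none of the 6 passed in another comparison. Of all genes tested 37.6% rose with wild type TEAD4. After either scaling 3 of the 6 fell there, where 21.1% (median-of-ratios) and 23.2% (upper-quartile) of all genes fell. With median-of-ratios scaling 3 of the 6 were higher with K178R than with wild type, where 19% of all genes were higher. Of 4 further regulatory particle subunits and associated deubiquitinases, USP14 rose with wild type TEAD4 (log2 0.15, adjusted p = 0.0182), which did not pass after scaling or on leaving out wild type replicate 1 or control replicate 1. The ubiquitin receptor ADRM1 fell with K178R (log2 -0.13, adjusted p = 0.0105), which was lost on leaving out either control library or K178R replicate 2. It was also lower with K178R than with wild type (log2 -0.11, adjusted p = 0.0102), lost after either scaling and without K178R replicate 2. After either scaling ADRM1 fell with wild type TEAD4 as well (log2 -0.11 with median-of-ratios). Among all genes tested, 11.1% fell with K178R against control and 34.5% were lower with K178R than with wild type.

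Among 11 adaptors, shuttles and VCP complex genes, 5 rose and 1 fell with wild type TEAD4, 3 rose and 1 fell with K178R against control, and 1 was higher and 4 lower with K178R against wild type. Of all genes tested 37.6% rose and 12.2% fell with wild type TEAD4, so the first counts are near the background. With K178R 11.7% of all genes rose and 11.1% fell against control, and 10.4% were higher and 34.5% lower against wild type. The shares of all genes after scaling are those given above with the 39 genes. After either scaling 1 of the 11 rose and 1 fell with wild type TEAD4, and 1 was higher and 1 lower with K178R than with wild type. Against control, 1 rose with K178R after upper-quartile scaling. RAD23B, which carries ubiquitylated proteins to the proteasome, fell in both TEAD4 lines, from 115.8 and 118 FPKM in control to 84.3 and 82.5 in wild type and 91.8 and 92.2 in K178R (log2 -0.48 and -0.34, adjusted p = 1.91e-05 and 0.000141). Its lines did not overlap, and this is opposite to the subunits that rose with wild type TEAD4. UFD1, a cofactor of VCP, stood at 31.7 and 30.4 FPKM in control, 35.7 and 36.0 in wild type, and 29.4 and 30.6 in K178R (log2 0.20 in wild type, adjusted p = 0.0026).

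In the NFE2L1 pathway, 4 of 8 genes rose and 1 fell with wild type TEAD4, 3 rose and 1 fell with K178R against control, and 3 were higher and none lower with K178R against wild type. Of all genes 37.6% rose and 12.2% fell with wild type TEAD4. With K178R 11.7% of all genes rose and 11.1% fell against control, and 10.4% were higher and 34.5% lower against wild type. The shares of all genes after scaling are those given above with the 39 subunit genes. NFE2L1 stood at 46.2 and 47.4 FPKM in control, 59.9 and 58.3 in wild type, and 62.5 in both K178R libraries. It rose in both TEAD4 lines (log2 0.33 and 0.41, adjusted p = 0.000158 and 0.00011). MAFK, a small MAF partner, rose in both lines too (log2 0.19 and 0.38, adjusted p = 0.0174 and 0.00205). KEAP1, which targets NFE2L2 for degradation, fell in both (log2 -0.18 and -0.16, adjusted p = 0.0033 and 0.0125). MAFF rose with wild type TEAD4 (log2 0.34, adjusted p = 0.0242) and did not pass with K178R against control (log2 0.16, adjusted p = 0.283). The calls of NFE2L2 were the same. The part of these genes in the levels of the subunits was not tested. After either scaling 1 of the 8, NFE2L1, rose with wild type TEAD4, 2 (median-of-ratios) or 3 (upper-quartile) fell, and 5 were higher with K178R than with wild type. The call of MAFK with wild type TEAD4 against control was also lost without control replicate 1 or wild type replicate 2. That of KEAP1 with K178R against control was lost without either control library or K178R replicate 1.

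Among 5 ubiquitin genes and E1 enzymes, 3 rose and 1 fell with wild type TEAD4, none rose and 3 fell with K178R against control, and 3 were lower with K178R than with wild type. Of all genes tested 37.6% rose and 12.2% fell with wild type TEAD4. With K178R 11.7% rose and 11.1% fell against control, and 34.5% were lower than with wild type. UBB, a polyubiquitin gene, stood at 262 and 257 FPKM in control, 291 and 302 in wild type, and 217 and 219.7 in K178R. Its lines did not overlap, with log2 0.19 in wild type (adjusted p = 0.00108), -0.25 in K178R (adjusted p = 0.000764) and -0.44 between the TEAD4 lines (adjusted p = 6.29e-05), the order also seen for PSMD4 and PSMD13. The ubiquitin-activating enzyme UBA1 fell in both lines (log2 -0.17 and -0.15, adjusted p = 0.0025 and 0.00968), the second lost without control replicate 2 or K178R replicate 2. After median-of-ratios scaling 2 of the 5 rose and 2 fell with wild type TEAD4, where 25.7% of all genes rose and 21.1% fell. After upper-quartile scaling 1 of the 5 rose and 2 fell there, where 24.2% of all genes rose and 23.2% fell.

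**Figure D4:**
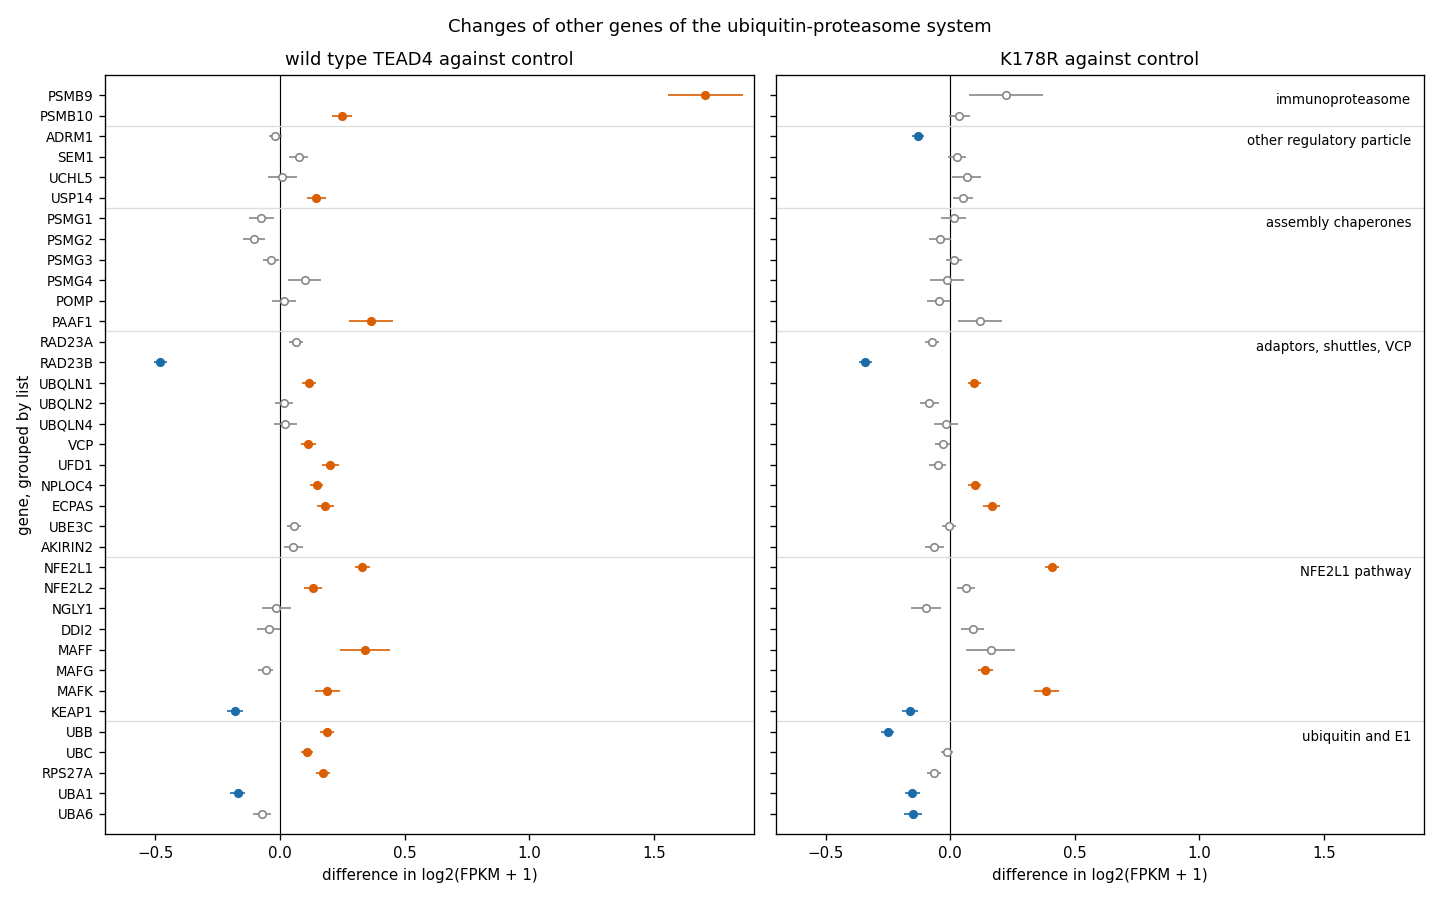
Difference on the log2(FPKM + 1) scale of the genes of the related lists (immunoproteasome, other regulatory particle genes, assembly chaperones, adaptors, NFE2L1 pathway, ubiquitin genes) for wild type TEAD4 against control and K178R against control, with bars of 1 SE. PSMB9 lies highest with wild type TEAD4 at 1.71, NFE2L1 lies above 0 in both comparisons and RAD23B below 0 in both.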

How the data were processed

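Total RNA of 6 libraries, 2 per line, went, per the labels' protocols, into TruSeq RNA libraries. The submitters' processing notes name Bowtie 0.12.2 and the build hg18. The sources used here do not give the program behind FPKM, its annotation, its use of strand or its handling of reads with several matches. The authors deposited FPKM per gene in 1 table per library. Samples were grouped by title. Of 20030 rows, 4 with a repeated identifier were left out. The number of reads cannot be read from FPKM, and relative depth came from the steps of low values.

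Tests covered the 11445 genes that reached 0.5 FPKM in 2 or more libraries, on log2(FPKM + 1) with limma 3.58.1 (R 4.3.3), with trend, all 6 libraries in 1 fit with 3 residual degrees of freedom, no scaling, two-sided, Benjamini-Hochberg adjustment per comparison and a threshold of 0.05. The analysis was tested on simulated data. The members and gene lists were chosen with earlier results of these data known, so no p was adjusted over a list alone. Genes named with values were TEAD4, the catalytic, PSME, PSMF and untested members, the 10 called members with the largest log2 difference in each direction of each comparison, the highest and lowest member of each subcomplex, the immunoproteasome subunits, and up to 3 called genes of each related list. The list of ubiquitin genes lacks 1 gene that is not reported here. Replicate numbers were not used to pair libraries in the main fit, and alternatives covered the pseudocount, the filter, scaling, the fit and each replicate left out. Shared 50-base stretches and positions come from GENCODE release 29 (GRCh38), and promoter windows from RefSeq (GRCh38.p14). In bulk RNA, fewer cells with a transcript and less transcript per cell cannot be told apart.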

Additional observations from a re-analysis of the deposited data

How the results depend on the processing

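With 2 libraries per line each gene has 3 residual degrees of freedom, and limma draws the spread of a gene partly from all genes tested. The number of reads is unknown. Of the 26 constitutive proteasome genes that rose with wild type TEAD4, 15 did so in every one of the 14 alternative analyses. Scaling moved the counts most: those that rose came to 15 with median-of-ratios and 15 with upper-quartile scaling, those that fell from 2 to 5 and 6, those lower with K178R than with wild type from 28 to 18 and 17, and those higher there from 1 to 2 and 2. Scaling also brought the median log2 difference of all genes with wild type TEAD4 from 0.09 to 0.02 (median-of-ratios) and 0.00 (upper-quartile), and turned PSMC4 there from 0.09 to -0.00554 and -0.0211. Without the trend, 0 fell with wild type TEAD4, 2 fell with K178R against control and 0 were higher with K178R than with wild type. With the control libraries averaged as 1 sample, 0 fell with wild type TEAD4 and 2 with K178R against control. With no filter on low values 1 fell with wild type TEAD4. Leaving out 1 replicate at a time gave 21 to 25 that rose and 0 to 2 that fell with wild type TEAD4, 2 to 3 that fell with K178R against control, and 23 to 27 lower and 0 to 0 higher with K178R than with wild type; there the lone sample is assumed to vary like the other groups. With the replicate number as a block, 26 rose and 1 fell with wild type TEAD4, 4 fell with K178R against control, and 27 were lower and 1 higher with K178R than with wild type. Deviations of same-numbered libraries correlated at 0.02, -0.03 and 0.03 over 11445 genes, so these libraries shared little deviation in expression. Whether they were prepared together cannot be read from these values. The causes of these shifts were not tested.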
